A study of Mus musculus with 3 samples.

Results

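The histone genes encode the proteins around which DNA is wound, and they fall into a clustered, replication-type class and a class of replacement variants. The rule took protein-coding genes whose symbol starts with Hist1h, Hist2h, Hist3h, Hist4h, H1f, H2af or H3f. The deposited files mix older and newer histone symbols, so only 16 genes matched by the symbol in the files. The same prefixes applied to the GENCODE M21 symbol of the same gene identifier gave 69 of the 18730 protein-coding genes, and the 16 were all among them. Of the 69, 58 were clustered replication-type genes (older symbols Hist1h to Hist4h) and 11 were replacement variants (older symbols H1f, H2af and H3f). Of the 16, 6 genes whose symbol in the files starts with H1f, H1f1 to H1f6, carry older Hist1h symbols and were counted as clustered. A further 13 histone genes of M21 were not analysed here. Genes are named below as in the files, with the older symbol in parentheses at first use.

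Core nucleosomes hold histones H2A, H2B, H3 and H4, and the linker histone H1 binds the DNA between them. Clustered histone genes are transcribed in S phase, lack introns as a rule, and give mRNAs that end just after a 3′ stem-loop bound by SLBP, without a poly(A) tail. Replacement variants as a rule are made throughout the cell cycle from ordinary polyadenylated mRNAs and enter chromatin outside replication. B cell lymphomas are dividing populations, and the libraries were enriched for poly(A) RNA, so the RNA of the replication-type class is the kind that this selection is built to leave behind.

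The 3 tumours form 1 group: lymphomas of pBIC mice on C57BL/6, bred to model diffuse large B cell lymphoma of the activated B cell type. All 3 carry floxed p53 (p53F/F), floxed Blimp1 (Blimp1F/F) and a constitutively active IKK2 behind a floxed stop (IKK2castopF/stopF), recombined by Cre from the immunoglobulin gamma 1 locus (Cg1Cre/+). Spleens came from moribund mice, and B220+GFP+ cells were sorted before oligo-dT selection and single-end sequencing of 50 nt. The normal germinal centre B cells named in the design text were not analysed here, so no value below compares a tumour with normal cells. Which cells recombined depends on the Cre driver, and nothing in the labels says whether the tumours came from unrelated animals, so p-values measure only the spread between these samples.

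Library totals were 15141009, 15022902 and 15074513 counts in tumours 1, 2 and 3. Levels are CPM (counts scaled to the library total), and 3 counts, the most that a count of 0 allows, equal 0.198, 0.200 and 0.199 CPM. The 6 B cell markers reported, Ms4a1, Cd79a, Cd79b, Ptprc, Pax5 and Blnk, were all at 1 CPM or more in every tumour, with summed levels of 3596, 2101 and 1902 CPM. Of the other cell types checked, the 6 erythroid markers summed to 7.27, 24.0 and 138 CPM and were each highest in tumour 3. The 4 plasma cell markers summed to 43.5, 416 and 247 CPM, most of it Jchain at 36.3, 396 and 236 CPM. Of the others, Prdm1 was at 6.54, 19.2 and 9.49 CPM, and Sdc1 and Tnfrsf17 stayed under 1 CPM in every tumour. The 5 macrophage markers summed to 15.3, 71.4 and 8.82 CPM, of which Lyz2 gave 7.73, 53.8 and 4.11 CPM. The 4 neutrophil markers summed to 47.6, 16.5 and 2.59 CPM, and the 5 T cell markers to 13.6, 18.4 and 34.2 CPM. Markers of NK cells, platelets and endothelial or stromal cells stayed under 3 CPM in sum. In these bulk samples, fewer cells of a type and less RNA per cell cannot be told apart.

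The 3′ stem-loop is the sequence that sets the replication-type class apart, and the sites of 6 genes the results turn on are given here. The search used the 16-letter pattern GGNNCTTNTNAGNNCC after the stop codon, on the transcript strand of M21 transcripts, and it found a match in 42 of the 58 clustered genes and in 1 of the 11 replacement variants, H2ax (H2afx). Each line shows 26 bases on GRCm38, 5′ to 3′ on the gene's strand, with the matched stem-loop in capitals.
H2ax, chr9:44335235-44335260, plus strand: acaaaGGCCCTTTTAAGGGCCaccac
H4c9 (Hist1h4i), chr13:22040961-22040986, minus strand: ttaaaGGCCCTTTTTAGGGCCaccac
H1f2 (Hist1h1c), chr13:23739507-23739532, plus strand: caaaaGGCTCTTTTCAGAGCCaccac
H2bc8 (Hist1h2bg), chr13:23571838-23571863, plus strand: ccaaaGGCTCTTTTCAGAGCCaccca
H2bc11 (Hist1h2bj), chr13:22043633-22043658, plus strand: ccaaaGGCTCTTTTCAGAGCCacgca
H3c8 (Hist1h3g), chr13:23535884-23535909, plus strand: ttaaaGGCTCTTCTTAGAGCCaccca

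The pattern fixes every letter not marked N, and a gene with other letters there counts as no match. Likeness between the matches is thus largely set by the search. Over the 43 matches there were 9 distinct 16-base sequences, and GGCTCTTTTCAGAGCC, shared by H1f2, H2bc8 and H2bc11, was in 22 genes. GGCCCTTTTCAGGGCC was in 7 and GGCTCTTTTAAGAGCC in 6. The match began 21 to 54 nt after the stop codon, with a median of 31 nt. Among the 16 clustered genes with no match, the annotated transcript of 13 ended less than 5 nt after the stop codon, so the window did not reach a stem-loop.

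Nearly all histone counts in these libraries came from replacement variants. The 11 replacement variants summed to 762, 1053 and 1088 CPM in tumours 1, 2 and 3 (mean 968 ± 179 SD, n = 3), and the 58 clustered genes to 25.4, 38.7 and 91.8 CPM (51.9 ± 35.2). The lowest replacement sum was therefore well above the highest clustered sum. All 69 genes together took 0.0787%, 0.109% and 0.118% of the counts. The clustered share of histone counts was 3.22% in tumour 1, 3.54% in tumour 2 and 7.78% in tumour 3. The 95% Clopper-Pearson intervals of these shares ran from 2.91 to 3.55%, from 3.26 to 3.84% and from 7.39 to 8.18%. The interval of tumour 3 lay above those of tumours 1 and 2, which overlapped each other. These intervals cover counting error only, and not the spread between tumours. The libraries carry no molecular identifiers, so copies of the same molecule count as separate reads and the intervals may be too narrow. H2ax has a stem-loop but is classed here as a replacement variant by its older symbol. Counting it with the clustered genes raised their mean share from 4.85% to 16.9%.

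Per kilobase of annotated exon, the median clustered gene stood at 0.0739, 0.234 and 0.497 CPM per kb in tumours 1, 2 and 3 (mean 0.268 ± 0.214), and the median replacement variant at 15.8, 21.0 and 22.2 CPM per kb (19.7 ± 3.42). Of the replacement variants, 8 of 11 were at 1 CPM or more in every tumour, against 5 of 58 clustered genes and 53.6% of all protein-coding genes. The 5 were H4c9, H1f2, H2bc4 (Hist1h2bc), H2bc21 (Hist2h2be) and H2aw (Hist3h2a). Under 1 CPM in every tumour were 44 clustered genes, of which 19 never passed 3 counts and 4 had no count at all: H1f6, H2ac10, H2bc1 and Hist1h2ao. No difference between the classes was tested, since the members were chosen with earlier results known.

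**Figure D1:**
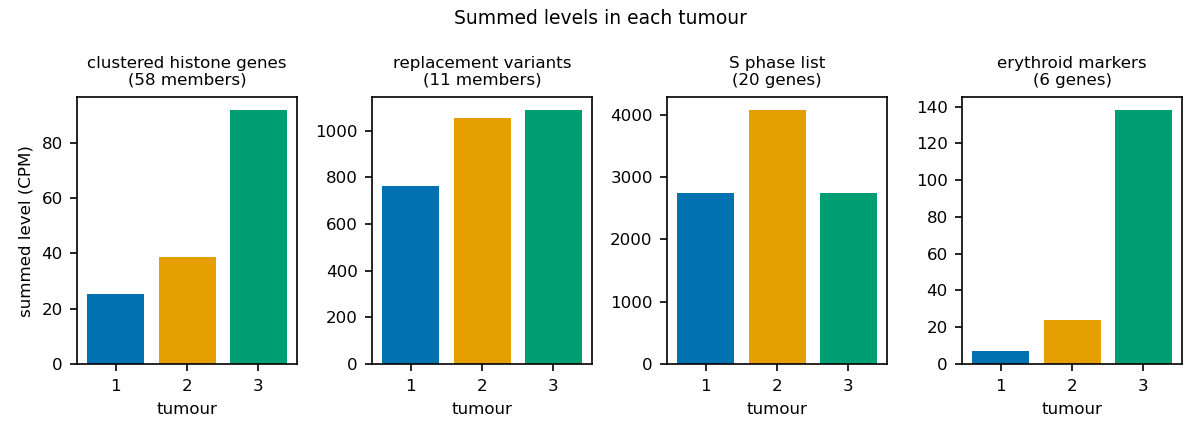
Summed level of the clustered and the replacement histone genes in each tumour, and of the S phase list and the erythroid markers, in CPM, with 1 bar per tumour and a scale of its own in each panel. Clustered genes run from 25.4 to 91.8 CPM and replacement variants from 762 to 1088 CPM, both highest in tumour 3, as are the erythroid markers at 138 CPM, while S phase genes are highest in tumour 2 at 4073 CPM.

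Other RNA without a poly(A) tail was looked at beside the clustered genes. The 7 RNAs analysed here from a list of such RNAs, Rn7sk and Rpph1 among them, summed to 1.19, 1.26 and 1.53 CPM. Genes typed as snRNA summed to 14.6, 8.72 and 14.6 CPM and those typed as snoRNA to 97.4, 84.5 and 90.4 CPM. Genes typed as rRNA stood at 1268, 2262 and 2365 CPM. The rRNA sum, like the clustered sum, was lowest in tumour 1 and highest in tumour 3. The snRNA and snoRNA sums were lowest in tumour 2. The part of the poly(A) selection in the clustered levels was not tested.

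Among the replacement variants, H3f3b had the highest mean level per length. H3f3b and H3f3a encode H3.3, the H3 form placed at active genes and at sites of nucleosome turnover. H3f3b (chromosome 11, 116021912 to 116027962, minus strand, GRCm38) stood at 241, 323 and 397 CPM, and H3f3a (chromosome 1, 180800832 to 180813943, minus strand) at 40.3, 61.0 and 74.0 CPM. Both were lowest in tumour 1 and highest in tumour 3. Per kilobase of exon, H3f3b exceeded H3f3a by 7.05, 6.24 and 6.31 times in tumours 1, 2 and 3 (mean 6.53 ± 0.451). Antisense transcripts overlap 22.8% of the H3f3a exon bases, and whether the counting used strand is not given, so its level carries that uncertainty. Of the read-length words of H3f3a, 72.9% were unique to it among annotated transcripts, against 93.1% for H3f3b. The counts of H3f3a could thus be short, and the ratio too high, where reads with several matches were dropped. Clustered H3 genes, 10 in all, summed to 1.06, 2.93 and 4.71 CPM, which left the H3.3 genes with 99.6%, 99.2% and 99.0% of the H3 counts.

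Of the H2A variants, Macroh2a1 (H2afy; chromosome 13, 56073619 to 56136361, minus strand) encodes macroH2A1, which carries a large extra domain and marks silent chromatin such as the inactive X. It was at 238, 332 and 262 CPM, highest in tumour 2. H2ax (chromosome 9, 44334694 to 44336077, plus strand), whose product is phosphorylated beside DNA breaks, was at 110, 162 and 88.5 CPM, also highest in tumour 2. H2aj (H2afj; chromosome 6, 136808244 to 136810074, plus strand), a variant reported to accumulate in senescent human cells, was at 61.2, 79.0 and 158 CPM. Tumour 3 thus held the lowest level of H2ax and the highest of H2aj. Per kilobase, H2aj was at 0.421 and 0.370 times the level of H2ax in tumours 1 and 2 and at 1.35 times in tumour 3. This ratio came from 3 tumours and was singled out after its values were seen.

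H2az1 (H2afz) and H2az2 (H2afv) encode the 2 forms of H2A.Z, placed next to transcription start sites by the SRCAP and EP400 complexes. H2az1 was at 30.4, 46.6 and 41.8 CPM and H2az2 at 25.8, 34.3 and 36.3 CPM. Per kilobase the pair was close, with H2az1 at 1.08, 1.25 and 1.06 times H2az2. Only 64.6% of the 50-base words of H2az1 were unique to it among M21 transcripts, the lowest share among the replacement variants, so its counts could be short where reads with several matches were dropped. Macroh2a2 (H2afy2), the second macroH2A gene, had 4, 0 and 2 counts. Clustered H2A genes, 14 in all, summed to 2.58, 3.33 and 5.37 CPM, and replacement H2A variants took 99.4%, 99.5% and 99.1% of the H2A counts.

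Linker histones were the family in which both classes were at like levels. H1f0 (chromosome 15, 79028450 to 79030504, plus strand), the H1 form that accumulates in differentiated cells, was at 14.7, 14.8 and 28.2 CPM. H1f10 (H1fx) had 4, 6 and 40 counts, and the oocyte form H1f8 (H1foo) had 4, 0 and 4. The 6 clustered H1 genes summed to 6.74, 11.5 and 31.6 CPM. Replacement H1 genes therefore held 69.4%, 57.0% and 49.6% of H1 counts, with exact intervals from 64.1 to 74.3%, from 52.0 to 61.9% and from 46.4 to 52.9%. The interval of tumour 1 lay above the other intervals, while those of tumours 2 and 3 overlapped. No replacement H2B or H4 gene was in the rule.

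In order of mean level per kilobase, the replacement variants ran from H3f3b (107.6 ± 26.1 CPM per kb) through H2ax (86.7 ± 27.2), H2aj (54.3 ± 28.1), Macroh2a1 (40.7 ± 7.22), H2az1 (22.3 ± 4.69), H2az2 (19.7 ± 3.42), H3f3a (16.7 ± 4.86) and H1f0 (9.37 ± 3.77) to H1f10 (0.909 ± 1.10). Neighbours in this order lay within 1 SD of each other's range except at 2 steps, from Macroh2a1 to H2az1 and from H1f0 to H1f10. H1f8 and Macroh2a2 had too few counts to be placed. The clustered gene H4c9, at 17.9 ± 9.73 CPM per kb, fell among them, and H1f2 followed H1f0 at 7.17 ± 6.42. The next clustered genes were H2bc4 at 3.73 ± 2.82 and H2bc8 at 3.33 ± 3.82 CPM per kb.

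**Figure D2:**
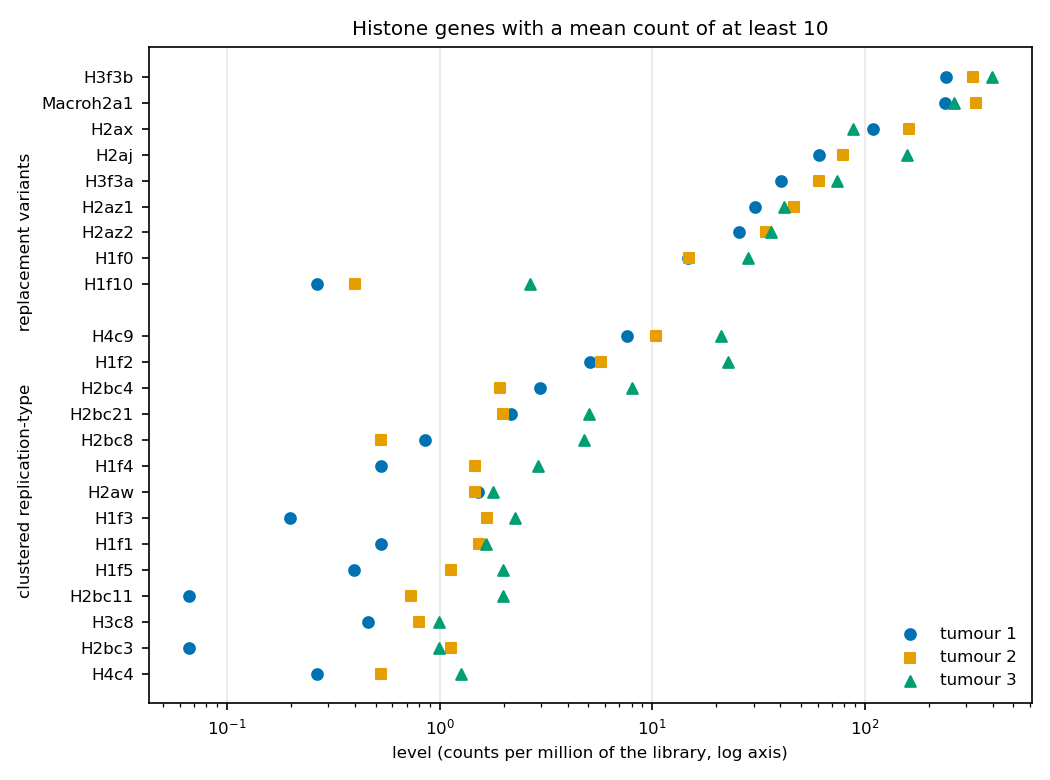
Level of the 9 replacement variants and 14 clustered genes with a mean count of at least 10, in CPM on a log axis, with 1 point per tumour. H3f3b is highest at 241 to 397 CPM, and the clustered genes begin with H4c9 at 7.60 to 21.0 CPM.

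Of the 58 clustered genes, 50 lie between 21715763 and 23934156 on chromosome 13, 5 on chromosome 3, 2 on chromosome 11 and 1 on chromosome 6. H4c9 (chromosome 13, 22040636 to 22041362, minus strand), which encodes H4, was the most abundant, with 115, 157 and 317 counts or 7.60, 10.5 and 21.0 CPM. H1f2 (chromosome 13, 23738808 to 23740367, plus strand), a linker histone gene, followed with 77, 86 and 343 counts or 5.09, 5.72 and 22.8 CPM. Both were highest in tumour 3, and for H1f2 the other tumours lay close together.

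The H2B genes gave the next levels. H2bc4 had 45, 29 and 121 counts, H2bc21 had 33, 30 and 76, and H2bc8 had 13, 8 and 72. Each was highest in tumour 3 and lower in tumour 2 than in tumour 1. H2bc11 had 1, 11 and 30 counts and H2bc3 (Hist1h2bb) 1, 17 and 15. The 15 H2B genes summed to 6.60, 7.99 and 24.3 CPM, and the 13 H4 genes to 8.39, 12.9 and 25.9 CPM.

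Below H1f2, the clustered linker genes H1f4 (Hist1h1e), H1f3 (Hist1h1d), H1f1 (Hist1h1a) and H1f5 (Hist1h1b) encode the remaining somatic H1 forms of the cluster. They had 8, 22 and 44 counts, then 3, 25 and 34, then 8, 23 and 25, and then 6, 17 and 30 counts. All 4 were lowest in tumour 1. H2aw, the H2A gene on chromosome 11, was the steadiest of the abundant clustered genes, with 23, 22 and 27 counts, although 33.0% of its exon bases are also exon bases of Trim17 or of a miRNA gene. H1f4 shares 25.7% of its exon bases with H2bc6 (Hist1h2be) and a pseudogene, so reads there may have been lost or assigned to either.

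Fewer counts stood behind the rest. H3c8, an H3 gene, had 7, 12 and 15 counts, and H4c4 (Hist1h4d) 4, 8 and 19. H2ac6 (Hist1h2ac) had 3, 2 and 22 and H2ac8 (Hist1h2ae) 10, 9 and 7. H2ac8 was thus highest in tumour 1, unlike most. The H3 genes H3c1 (Hist1h3a), H3c6 (Hist1h3e) and H3c3 (Hist1h3c) had 0, 9 and 14 counts, 3, 4 and 10, and 1, 7 and 8. The H2B genes H2bc12 (Hist1h2bk) and H2bc6 had 1, 7 and 15 counts, and 3, 7 and 7. In none of these 5 did a tumour pass 15 counts.

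The clustered genes with a mean count of at least 10 were mostly highest in tumour 3. This was so for 13 of 14, H2bc3 being the exception, against 35% of the 11135 protein-coding genes with that mean count, and 7 of 14 were at least 2-fold above both other tumours, against 4.38%. Among replacement variants it was 6 of 9, with 1, H1f10, at least 2-fold above both. The median ratio of tumour 3 to the mean of tumours 1 and 2 was 2.51 for clustered genes, 1.41 for replacement variants and 1.01 for all protein-coding genes. The largest clustered ratios were 6.87 for H2bc8 and 4.99 for H2bc11, and H1f2 stood at 4.21, H2bc4 at 3.27 and H4c9 at 2.33. A gene can pass a mean count of 10 through tumour 3 alone, so these are not all the clustered genes. The filter thus favours genes that are high in tumour 3, and these counts and medians can be raised by it. H2bc11 (1, 11 and 30 counts), H4c4 (4, 8 and 19) and H1f10 (4, 6 and 40) passed mainly through tumour 3.

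Requiring at least 10 counts in every tumour left 5 clustered genes, of which 5 were highest in tumour 3 and 4 at least 2-fold above both others. For replacement variants it left 8, of which 5 were highest in tumour 3 and 0 were 2-fold above both. The cut fell between near ties. H2aj just missed it, at 157.816 CPM in tumour 3 against 79.0127 in tumour 2. The clustered gene H4c9 just passed it, at 21.0289 against 10.4507 CPM. The background shares were 34.4% and 2.96% of 10412 protein-coding genes. Genes of low count scatter more: at a mean count of 10 to 50, 40.4% of protein-coding genes were highest in tumour 3 and 16.9% were 2-fold above both, against 10 and 4 of 11 clustered genes. Among 158 single-exon protein-coding genes outside the histone set, 61 were highest in tumour 3 and 20 were 2-fold above both, with a median ratio of 1.05. Tumour 3 was singled out after the values were seen, and no test was made of it.

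The summed clustered level in tumour 3 was 2.87 times the mean of tumours 1 and 2 (counting interval 2.64 to 3.12), and that of replacement variants 1.20 times. The clustered ratio was 3.62 against tumour 1 alone, 2.37 against tumour 2 alone, and 2.73 with H4c9 and H1f2 left out. By family it was 3.46 for H1, 3.33 for H2B, 2.43 for H4, 2.36 for H3 and 1.82 for H2A. Erythroid markers moved with it: all 6 were highest in tumour 3, their sum was 8.82 times the mean of tumours 1 and 2, and Hbb-bs, a beta globin gene, stood at 2.64, 8.32 and 62.6 CPM (adjusted p = 0.0234, edgeR). Also past the threshold in edgeR were the plasma cell marker Jchain (adjusted p = 0.0363) and the macrophage marker Lyz2 (adjusted p = 0.0372), both highest in tumour 2. All of these calls were lost with library totals, with a mean count of at least 10, and without tumour 1 or tumour 2, where edgeR called 0 genes. Red cells had been lysed and B220+ cells sorted. Of the T cell markers, 3 of 5 were highest in tumour 3. For both marker counts the background is 35%, the share of protein-coding genes with a mean count of at least 10 that were highest there. S phase genes did not move with the clustered sum, their summed ratio being 0.803. The part of any of these in the clustered levels was not tested.

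**Figure D3:**
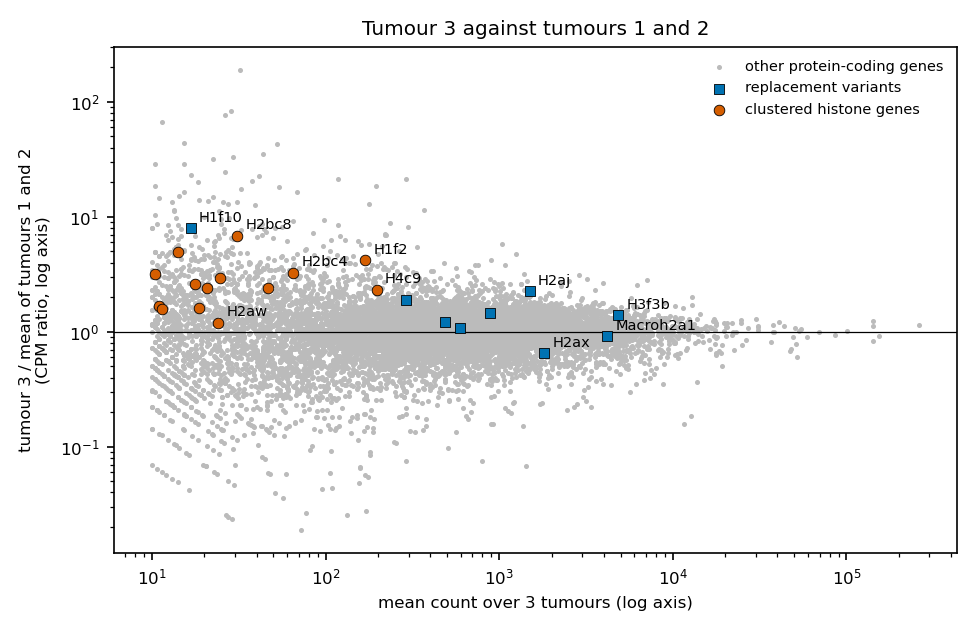
Ratio of tumour 3 to the mean of tumours 1 and 2 for each protein-coding gene with a mean count of at least 10, against its mean count, on log axes, with clustered genes and replacement variants marked. Genes at a ratio of 0 are not drawn. Clustered genes centre on a ratio of 2.51, and all protein-coding genes on 1.01.

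Whether a single histone gene varied between the tumours more than genes of like abundance was tested with edgeR over 11478 genes. Only 13 members had enough counts to enter, all 8 replacement variants at 1 CPM or more and the 5 clustered genes at 1 CPM or more in every tumour. None of the 13 passed an adjusted p of 0.05, and 0.139% of all genes tested did. At an unadjusted p under 0.05 in edgeR there were 2, against 6.27% of all genes tested: H1f2, whose adjusted p was 0.645, and H2aj, whose adjusted p was 0.773. The ratio of highest to lowest tumour was 4.47 for H1f2, 4.16 for H2bc4, 2.77 for H4c9, 2.58 for H2aj and 1.91 for H1f0, the widest 5 among members with a mean count of 50 or more. The adjusted p was 0.981 for H2bc4 and 0.997 for H4c9 and H1f0. No member passed with the DESeq2 dispersion trend either, where the lowest adjusted p of a member was 0.262. A p that misses the threshold does not show that the tumours were alike.

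Some clustered genes are known to make polyadenylated transcripts as well, which run on past the stem-loop, so the annotated ends were set beside the levels. In 22 clustered genes the M21 annotation runs more than 100 nt past the stem-loop, and 13 of these have AATAAA, the polyadenylation hexamer, in that stretch. The median of their mean levels over the 3 tumours was 0.365 CPM, and 3 of the 22, H4c9, H1f2 and H2aw, were at 1 CPM or more in every tumour. In 20 genes the annotation ends 100 nt or less past the stem-loop, and none has AATAAA. The median of their mean levels was 0.177 CPM. The highest mean, that of H2bc11, was 0.929 CPM, from 0.0660, 0.732 and 1.99 CPM in tumours 1, 2 and 3. Of the 16 with no match, median of mean levels 0.0774 CPM, 2 were at 1 CPM or more in every tumour, H2bc4 and H2bc21. Their annotated exons cover 1156 and 2620 nt, against a median of 402 nt in this group, so the group is mixed in length.

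Length and the end differ together, and per kilobase the order was not the same. The median of mean levels was 0.226 CPM per kb for genes annotated more than 100 nt past the stem-loop. It was 0.402 for those ending within 100 nt, and 0.222 for those with no match. The M21 annotation of H1f2 runs 840 nt past its stem-loop and holds AATAAA. That of H2ax runs 822 nt and that of H4c9 330 nt, both without AATAAA. H2bc8 runs 155 nt past, while H2bc11 and H3c8 stop after 23 and 47 nt. The grouping describes the annotation, and which ends were used in the tumours was not tested.

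**Figure D4:**
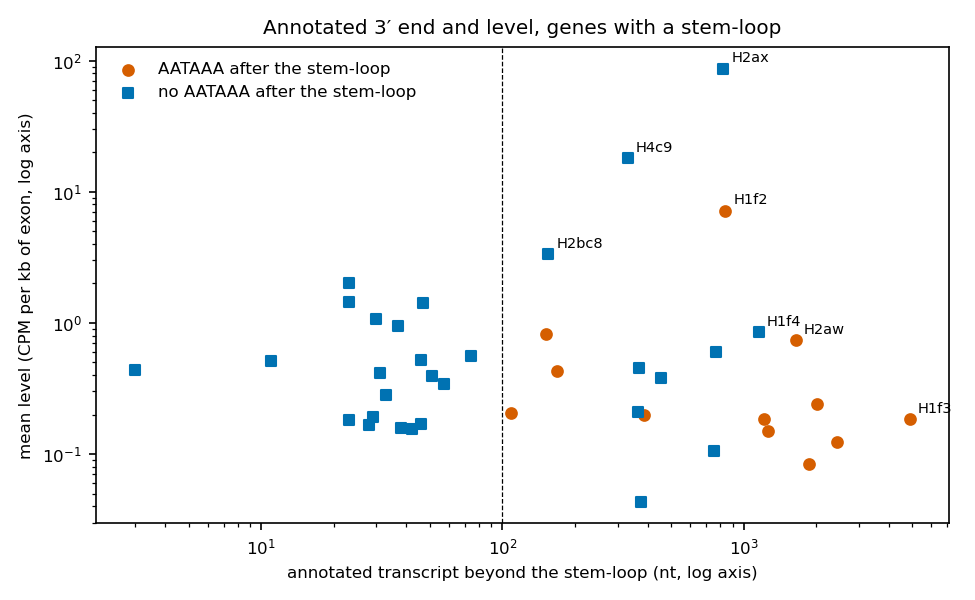
Mean level of each histone gene with a stem-loop match, in CPM per kb of exon, against the annotated length past the stem-loop in nt, on log axes, with genes at 0 not drawn and AATAAA marked by colour. H2ax at 86.7 and H4c9 at 17.9 CPM per kb stand highest, both to the right of the dashed line at 100 nt.

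Sequence shared between genes was more common among the clustered class. The median clustered gene had 51.8% of its 50-base words unique among M21 transcripts, 26 members were under 50%, and the lowest was at 6%. The median replacement variant was at 93%. Whether reads with several matches were dropped is not stated in the sources used, and the part of this in the clustered levels was not tested. Of the clustered genes, 55 have 1 exon, and 8 of the 11 replacement variants have several.

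The promoters of both classes were compared because the clustered genes ran high together in tumour 3. RefSeq sequence of GRCm38.p6 (250 bases before to 50 after the start) was at hand for 58 members, 48 clustered and 10 replacement. The 4 motifs searched on both strands were ATTTGCAT, the octamer bound by OCT1 at H2B promoters, the CCAAT box, the TATA box as TATAAA, and AAACACA, a sequence known from H1 promoters. None of these contains another on either strand. ATTTGCAT was in 6 of 12 clustered H2A and 6 of 12 clustered H2B promoters, in none of the clustered H1, H3 and H4 promoters, and in 1.97% of the 27025 genes. Some H2A and H2B genes lie head to head, as H2ac8 and H2bc8 do. Their windows can overlap and hold the same site, so the H2A and H2B counts are not independent. How many sites were shared was not counted. CCAAT was in 41 of 48 clustered promoters, but in only 3 of 10 for H4, and in 7 of 10 replacement promoters, against 41.1% of genes. TATAAA was in 29 of 48 clustered promoters against 15.7% of genes. AAACACA was in 5 of 6 clustered H1 promoters against 8.22%. Among the 10 replacement promoters, ATTTGCAT, and likewise TATAAA and AAACACA, was in 1. A match is a description of letters and no evidence of a site in use.

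The promoters of H1f2 and H2bc8 are printed up to the start because these genes stood at 4.21 and 6.87 times in tumour 3, the first an H1 gene and the second an H2B gene. The capitals mark every match to the 4 motifs. H1f2 holds 1 AAACACA and 1 CCAAT, and H2bc8 holds 1 ATTTGCAT, 1 TATAAA and 2 CCAAT, of which 1 is on the other strand.
H1f2, chr13:23738557-23738806, plus strand: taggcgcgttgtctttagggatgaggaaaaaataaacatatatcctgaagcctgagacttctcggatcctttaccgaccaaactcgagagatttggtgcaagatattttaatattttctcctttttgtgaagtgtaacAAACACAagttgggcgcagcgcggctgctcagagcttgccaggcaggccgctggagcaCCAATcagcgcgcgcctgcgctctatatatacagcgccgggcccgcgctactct
H2bc8, chr13:23571150-23571399, plus strand: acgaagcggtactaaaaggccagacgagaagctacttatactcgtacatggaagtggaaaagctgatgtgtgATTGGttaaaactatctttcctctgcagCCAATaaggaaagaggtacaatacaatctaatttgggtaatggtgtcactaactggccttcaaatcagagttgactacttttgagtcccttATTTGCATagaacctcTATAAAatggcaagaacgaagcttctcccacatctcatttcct

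The genes listed for making and trimming replication-type mRNA were detected throughout, at widely differing levels. All 22 genes of the histone mRNA processing list were at 1 CPM or more in every tumour, against 53.6% of protein-coding genes, and they summed to 3055, 3295 and 3156 CPM. In the edgeR spread test 0 of 22 passed, against 0.139% of all genes, and 0 had an unadjusted p under 0.05, against 6.27%. The most abundant were Dhx9, an RNA helicase, at 443 ± 139 CPM and Srrt, the ARS2 protein of the cap complex, at 429 ± 51.4 CPM. The least abundant were Zfp473 at 4.77 ± 2.48 CPM and Lsm10 at 12.4 ± 4.29 CPM. Slbp, the stem-loop binding protein, was at 61.4, 85.5 and 54.5 CPM, highest in tumour 2.

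All 34 genes of the list of histone chaperones and exchange factors, which carry histones and swap variants, were also at 1 CPM or more in every tumour. They summed to 7161, 8235 and 6680 CPM, led by Npm1 at 1654 ± 413 CPM and Nap1l1 at 660 ± 102 CPM. In the edgeR spread test 0 of 34 passed, against 0.139% of all genes, and 2, Srcap and Atrx, had an unadjusted p under 0.05, a share near the 6.27% of all genes.

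The 20 S phase genes summed to 2749, 4073 and 2739 CPM, and 18 were highest in tumour 2, against 29.6% of protein-coding genes with a mean count of at least 10. The other 2, Cdt1 and E2f1, were highest in tumour 3. The most abundant were Mcm6 at 429 ± 90.9 CPM, a helicase subunit, and Rrm1 at 424 ± 91.1 CPM, which makes deoxyribonucleotides. In the edgeR spread test 0 of 20 passed, against 0.139% of all genes, and 2, Rrm2 and Tyms, had an unadjusted p under 0.05, against 6.27%. The order of the S phase genes, highest in tumour 2, differed from that of the clustered histones, highest in tumour 3. Mcm2 stands in both this list and that of chaperones.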

How the data were processed

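RNA of 3 sorted pBIC lymphomas was analysed from raw counts per gene, 1 library per file, deposited by the authors without normalization. Per the submitters' processing notes the tools were STAR 2.5.2b, featureCounts 1.6.0 and FastQC, with build mm10; roles, settings, strand use and annotation release are not stated there. If reads with several matches were dropped, near-identical histone genes are undercounted. Members and lists were chosen with earlier results of these data known, and the list of RNAs without a poly(A) tail was added after the counts were seen. Of the 37646 genes, 37536 identifiers were in GENCODE M21 (GRCm38, the same assembly as mm10), which gave class, length and position; 61 of 69 members carry another symbol there.

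Levels are CPM on library totals, and 3 counts set the floor. The spread test used edgeR 4.0.16 in R 4.3.3 with TMM factors and filterByExpr. The residual deviance of an intercept-only quasi-likelihood fit over the prior variance gave a one-sided F test on 2 and 15.8 degrees of freedom. P-values were adjusted by Benjamini-Hochberg over 11478 genes at a threshold of 0.05. It was tested on simulated data in which only genes with a mean count of 50 or more were changed. How it performs on genes of fewer counts was not tested. DESeq2 1.42.0 gave other size factors and dispersions. Intervals are 95% Clopper-Pearson. Genes named are every replacement variant, the 30 members with the highest mean CPM, the 5 with the widest range at a mean count of 50 or more, and the 2 most abundant of each list, plus a few chosen after their values were seen. A further B cell marker is not reported here.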

Additional observations from a re-analysis of the deposited data

How the results depend on the processing

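Direction held throughout: clustered genes were below replacement variants under every alternative run. Counting H2ax, which has a stem-loop, with the replication-type genes raised the clustered share of histone counts from 4.85% to 16.9%, because H2ax is abundant. Per kilobase of unique 50-base words the clustered median was 0.725 CPM per kb, and without length the replacement median was 39.6 CPM. With the symbols of the files alone, an alternative added after seeing the data, the replacement median was 9.37 CPM per kb, with 1 clustered and 3 replacement genes at 1 CPM or more in every tumour. At 5 CPM in every tumour, 2 clustered genes qualified. Leaving out 1 tumour gave a clustered share of 3.38 to 5.66%, 5 to 9 clustered genes at 1 CPM (9 without tumour 1), 8 replacement variants, medians of 0.154 to 0.366 and 18.4 to 21.6 CPM per kb, and a clustered tumour 3 ratio of 2.37 to 3.62, which has no value without tumour 3. That ratio was 2.77 with TMM and 2.78 with DESeq2 size factors. The spread test called 0 members under every setting, while it called 0 to 164 of all genes, 16 as reported: 164 without a filter, 119 with the DESeq2 trend, and 0 with library totals, with a mean count of at least 10, and without tumour 1 or 2. No paired analysis was possible because the 3 tumours form 1 group. Clustered genes of few counts limit every statement on single members.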
